A study of Mus musculus with 15 samples.

Results

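The genes described here were 8 genes tied to glucocorticoid hormones, read in fibroblasts sorted from the mouse thymus before and after irradiation. They were the gene for the glucocorticoid receptor, Nr3c1, and 7 genes that the hormone-bound receptor is known to induce in many cell types, Tsc22d3, Fkbp5, Klf9, Zbtb16, Per1, Sgk1 and Dusp1. They were chosen by name from the 12763 genes of the deposited count table. All 8 had an entry there and all 8 passed the filter on low counts, which kept 10207 genes for testing. The mice were young wild-type males in all 3 groups. In the first group they were untreated and matched in age, and in the others they had received 425 rad, a sublethal dose of radiation, 1 day or 3 days before the thymus was taken. Fibroblasts were sorted after digestion with Liberase TH and DNase, and each group gave 5 libraries, 15 in all. Transcripts were counted with MARS-seq, a method that captures the 3′ ends of mRNA and counts molecules by unique molecular identifiers (UMIs). No glucocorticoid was given and no hormone level was measured, as far as the labels say, so the name of the group describes what these genes are known for and not a treatment. Whether each replicate was its own animal is not stated in the labels, so the p-values speak only of the spread among libraries, which may be technical.

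Glucocorticoids are steroid hormones of the adrenal gland, and the thymus and skin also make some of their own. They cross the cell membrane and bind the receptor, which waits in the cytoplasm on a chaperone complex, moves to the nucleus and there raises some genes and lowers others, many inflammatory ones among the latter. Stress and radiation are known to raise glucocorticoids in the blood, and thymocytes are known for dying in response to them, while stromal cells of the thymus survive. Several of the induced genes feed back on the pathway: the product of Fkbp5 lowers the receptor's affinity for hormone, and those of Tsc22d3 and Dusp1 dampen inflammatory signalling.

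Untreated libraries held 1102176 to 2661621 UMIs, day 1 libraries 740169 to 2638344 and day 3 libraries 1967148 to 3750214. Levels below are CPM, UMI counts divided by the TMM-adjusted library size and brought to a common scale, given as mean ± SD with n = 5 per group. Changes are on the log2 scale ± SE from one edgeR quasi-likelihood fit to all 15 libraries, and a gene was called where its p-value, adjusted over all 10207 genes by Benjamini-Hochberg, was under 0.05. Day 1 replicate 1 was the library of 740169 UMIs. It stood apart from the other 4 of its group on the second principal component, at 65.97 against −27.3 to −23.98. Results of the 8 genes that lean on it are given with and without it. The sort label asked for CD34 and PDGFRα on the cell surface. Cd34 fell from 1571 ± 87.8 to 523 ± 131 CPM at day 1 and was at 1084 ± 102 CPM at day 3. Its log2 changes from untreated samples were −1.58 ± 0.16 and −0.53 ± 0.16 (edgeR adjusted p = 1.0e-07 and 0.0220). Pdgfra fell from 310.2 ± 40.2 to 111 ± 29.9 CPM and was at 193 ± 29.7 CPM at day 3. Its log2 changes were −1.47 ± 0.17 and −0.68 ± 0.16 (edgeR adjusted p = 5.1e-07 and 0.00615). Summed over 8 fibroblast marker genes, the level was 40282 to 46485 CPM in untreated libraries, 10167 to 24461 CPM at day 1 and 33615 to 41108 CPM at day 3. The label also gave EpCAM as positive, and Epcam reached 11, 10 and 10 UMIs in all untreated, day 1 and day 3 libraries together.

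At day 1 all 8 genes differed from untreated samples, 5 of them lower and 3 higher. Nr3c1, Tsc22d3, Fkbp5, Klf9 and Zbtb16 fell, by between 0.65 and 1.39 on the log2 scale, and Per1, Sgk1 and Dusp1 rose, by between 0.98 and 1.53. At day 3 the picture was different: Sgk1 alone of the 8 was called against untreated samples, at 3.03 times the untreated level, and edgeR, DESeq2 and limma voom each called 0 of them lower, with 0 also at an unadjusted p under 0.05. Between day 1 and day 3, Nr3c1, Tsc22d3, Fkbp5, Klf9 and Zbtb16 rose and Per1 fell. These counts stand against a background in which much of the transcriptome moved. At day 1, 46.2% of all tested genes were called, 23.1% higher and 23.1% lower. At day 3 the share was 18.4%, with 9.20% higher and 9.25% lower, and for day 3 against day 1 it was 32.7%, with 16.1% higher and 16.6% lower. The median change over the 8 genes was −0.67 at day 1, 0.11 at day 3 and 0.66 for day 3 against day 1, beside −0.02, −0.01 and 0.01 over all genes tested. The 3 comparisons share libraries, so each change is set out on its own below.

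**Figure D1:**
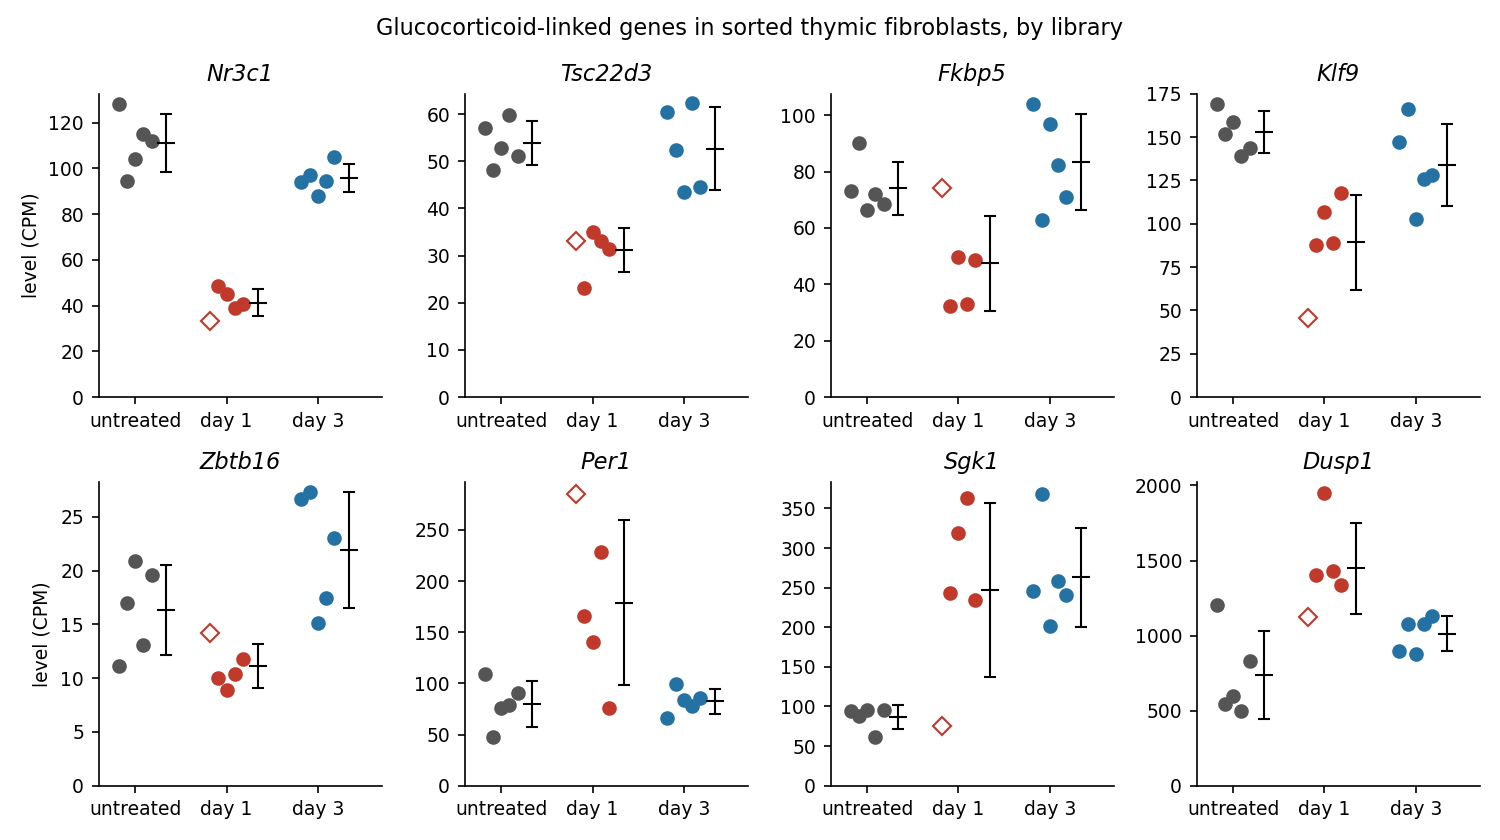
Levels of the 8 genes in each of the 15 libraries, in CPM on a linear axis from 0, with a panel per gene and its own scale; points are libraries, the open diamond is day 1 replicate 1, and bars give the mean ± SD of each group (n = 5). Nr3c1 and Tsc22d3 are lower in all 5 day 1 libraries than in any untreated or day 3 library, and Sgk1 is higher in all 5 day 3 libraries than in any untreated one.

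The stretch of DNA just before a gene's start holds part of what controls it. RefSeq start sites on GRCm38.p6 were used for 6 of the 8 genes, with 14 start sites between them. Nr3c1 was left out of this search, and no window was at hand for Zbtb16. Each window ran from 250 bases before to 50 after the start. Windows are printed for the 3 genes that rose at day 1, Sgk1, Dusp1 and Per1, and for Fkbp5, Klf9 and Tsc22d3, which fell. Sgk1 has 6 start sites in the table and Tsc22d3 has 3, and for each the window with the most matched bases is printed, so these windows are not typical of their gene: sites 3 and 6 of Sgk1 and site 1 of Tsc22d3 matched none of the motifs. Sequences run 5′ to 3′ on the gene's own strand, and capitals mark matches to any of 5 motifs searched on both strands. These were the core of the palindrome bound by the glucocorticoid receptor (ACANNNTGT), its half-site (AGAACA), the E-box bound by the circadian clock's activators (CACGTG), the cAMP response element bound by CREB (TGACGTCA) and its half-site (TGACG). The half-site AGAACA can overlap the core, and TGACG lies inside TGACGTCA. Positions are counted from the start site, at which the number is 0.
Sgk1 start site 5, chr10:21993640-21993939, plus strand: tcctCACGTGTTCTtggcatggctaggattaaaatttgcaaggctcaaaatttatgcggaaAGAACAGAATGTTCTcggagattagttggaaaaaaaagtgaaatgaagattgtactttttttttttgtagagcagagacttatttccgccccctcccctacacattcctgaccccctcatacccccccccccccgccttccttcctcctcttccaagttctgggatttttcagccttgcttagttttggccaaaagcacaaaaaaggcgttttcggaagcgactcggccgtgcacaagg
Dusp1, chr17:26508423-26508722, minus strand: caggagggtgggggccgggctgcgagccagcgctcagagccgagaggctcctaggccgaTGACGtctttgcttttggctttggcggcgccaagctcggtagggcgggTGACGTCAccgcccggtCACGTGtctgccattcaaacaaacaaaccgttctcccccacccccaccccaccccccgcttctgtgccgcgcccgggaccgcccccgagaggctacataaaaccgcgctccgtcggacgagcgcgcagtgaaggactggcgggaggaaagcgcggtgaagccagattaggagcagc
Per1 start site 1, chr11:69098699-69098998, plus strand: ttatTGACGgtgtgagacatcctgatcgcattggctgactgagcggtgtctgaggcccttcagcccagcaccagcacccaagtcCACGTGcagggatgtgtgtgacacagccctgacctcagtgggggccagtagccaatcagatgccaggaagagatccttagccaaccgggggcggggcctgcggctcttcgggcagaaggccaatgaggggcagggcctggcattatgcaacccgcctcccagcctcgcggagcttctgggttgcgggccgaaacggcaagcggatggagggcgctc
Per1 start site 2, chr11:69099902-69100201, plus strand: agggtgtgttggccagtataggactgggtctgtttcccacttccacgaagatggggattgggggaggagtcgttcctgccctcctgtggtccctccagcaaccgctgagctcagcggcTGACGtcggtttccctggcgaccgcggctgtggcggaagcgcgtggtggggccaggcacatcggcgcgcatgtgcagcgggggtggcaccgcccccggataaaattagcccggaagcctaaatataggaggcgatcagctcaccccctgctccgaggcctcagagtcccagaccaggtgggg
Fkbp5, chr17:28486100-28486399, minus strand: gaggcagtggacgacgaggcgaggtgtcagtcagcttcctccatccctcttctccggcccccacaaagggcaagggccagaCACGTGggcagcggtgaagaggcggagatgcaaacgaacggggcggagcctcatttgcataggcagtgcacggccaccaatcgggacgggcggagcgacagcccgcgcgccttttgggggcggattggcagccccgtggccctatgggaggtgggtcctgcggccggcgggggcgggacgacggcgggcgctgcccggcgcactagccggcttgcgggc
Klf9, chr19:23140976-23141275, plus strand: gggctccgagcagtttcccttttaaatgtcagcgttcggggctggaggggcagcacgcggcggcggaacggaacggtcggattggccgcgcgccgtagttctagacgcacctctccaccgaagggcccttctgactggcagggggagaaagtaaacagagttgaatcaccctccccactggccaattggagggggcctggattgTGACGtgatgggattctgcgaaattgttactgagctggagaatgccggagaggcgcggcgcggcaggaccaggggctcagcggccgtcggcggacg
Tsc22d3 start site 2, chrX:140600473-140600772, minus strand: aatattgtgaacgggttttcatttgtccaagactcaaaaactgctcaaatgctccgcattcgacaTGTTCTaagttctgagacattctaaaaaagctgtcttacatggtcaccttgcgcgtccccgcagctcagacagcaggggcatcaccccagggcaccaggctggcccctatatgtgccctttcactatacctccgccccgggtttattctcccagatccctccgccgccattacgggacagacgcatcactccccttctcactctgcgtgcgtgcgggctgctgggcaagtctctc
The Sgk1 window held the core at −186 with a half-site on each side, at −189 and −180, which together spell a full palindrome, and a further half-site at −242 that overlaps an E-box at −246. A second Sgk1 start site, not printed, also matched the core. The Dusp1 window held a full cAMP response element at −143, an E-box at −126 and a cAMP half-site at −191. Both Per1 windows held a cAMP half-site, at −246 and −132, and the first of them an E-box at −166. Fkbp5 had an E-box at −169 and Klf9 a cAMP half-site at −46. Tsc22d3, which fell at day 1, held a receptor half-site at −185 in the printed window. Among the 14 start sites, 2 matched the core, 4 the half-site, 4 the E-box, 1 the full cAMP element and 6 its half-site. Of all 32851 windows in the table, 6.8% matched the core, 19.0% the half-site, 7.2% the E-box, 1.8% the full cAMP element and 20.8% its half-site. Start sites of the same gene are not independent. Counted by gene, 1 of 6 matched the core, 2 the half-site, 4 the E-box, 1 the full cAMP element and 5 its half-site. Over all 27025 genes the shares were 7.9%, 21.3%, 8.1%, 2.0% and 23.0% in the same order. A match is a run of letters and not a bound site, and receptor sites far from a start, as known for Fkbp5 and Tsc22d3, lie outside these windows. Counts of 3′ ends do not show which start site a transcript came from.

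Nr3c1 encodes the glucocorticoid receptor itself, the transcription factor through which the hormone acts. Its level was 128, 94.5, 104, 115 and 112 CPM in the 5 untreated libraries, 33.1, 48.4, 45.2, 39.1 and 40.7 CPM at day 1, and 94.0, 97.2, 87.8, 94.7 and 105 CPM at day 3. Every day 1 library lay below every untreated and every day 3 library, and untreated and day 3 libraries overlapped. The group means were 111 ± 12.6, 41.3 ± 5.89 and 95.7 ± 6.21 CPM. Nr3c1 fell 2.63-fold at day 1, a log2 change of −1.39 ± 0.14 (edgeR adjusted p = 6.6e-08), the steepest fall of the 8 genes, and it ranked 157th by p among the 10207 genes tested. It rose again by 1.19 ± 0.14 on the log2 scale from day 1 to day 3 (edgeR adjusted p = 9.9e-07). At day 3 its level was not called against untreated samples, with a log2 difference of −0.20 and a 95% interval of −0.47 to 0.06 (edgeR adjusted p = 0.299). In order of level, untreated and day 3 samples were neighbours that did not differ beyond their spread, and day 1 was below both.

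Tsc22d3 encodes GILZ, the glucocorticoid-induced leucine zipper, which binds inflammatory transcription factors such as NF-kB and AP-1. Untreated libraries held 57.0, 48.1, 52.9, 59.8 and 51.1 CPM, day 1 libraries 33.1, 23.1, 35.1, 33.2 and 31.5 CPM, and day 3 libraries 60.5, 52.4, 43.4, 62.4 and 44.6 CPM. As for Nr3c1, the 5 day 1 libraries lay below all others, with no overlap. The mean went from 53.8 ± 4.66 to 31.2 ± 4.69 and then to 52.7 ± 8.77 CPM, a fall of 1.73-fold at day 1 with a log2 change of −0.79 ± 0.16 (edgeR adjusted p = 3.5e-04) and a rise of 0.77 ± 0.16 by day 3 (edgeR adjusted p = 6.9e-04). The day 3 difference from untreated samples was −0.02, with a 95% interval of −0.33 to 0.28 (edgeR adjusted p = 0.942), and its sign changed under other settings.

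Fkbp5 encodes FKBP51, the co-chaperone that holds the receptor in a state of low hormone affinity, and it is among the most widely used readouts of receptor activity. Its untreated libraries read 73.2, 90.1, 66.2, 72.2 and 68.5 CPM, those of day 1 read 74.0, 32.3, 49.6, 33.2 and 48.6 CPM, and those of day 3 read 104, 62.9, 96.9, 82.2 and 71.0 CPM. Day 1 replicate 1 sat among the untreated libraries, and the other 4 day 1 libraries lay below all untreated and all day 3 ones. Fkbp5 fell at day 1 from 74.0 ± 9.41 to 47.5 ± 16.9 CPM, a log2 change of −0.70 ± 0.20 (edgeR adjusted p = 0.00640), and without day 1 replicate 1 the change was −0.85 ± 0.17 (edgeR adjusted p = 3.8e-04). It rose from day 1 to day 3 by 0.87 ± 0.20 (edgeR adjusted p = 0.00175), to 83.3 ± 17.1 CPM, and the day 3 level was not called against untreated samples (log2 difference 0.17, 95% interval −0.22 to 0.55, edgeR adjusted p = 0.592).

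Klf9 encodes a zinc finger transcription factor that is induced directly by the receptor and represses some of its targets in turn. It read 169, 152, 159, 139 and 144 CPM in untreated libraries, 45.7, 87.7, 107, 89.1 and 118 CPM at day 1, and 147, 166, 103, 126 and 128 CPM at day 3. All 5 day 1 libraries were below all untreated ones, replicate 1 lowest of all, while day 1 and day 3 libraries overlapped. The fall at day 1, from 153 ± 12.0 to 89.4 ± 27.5 CPM, was −0.74 ± 0.18 on the log2 scale (edgeR adjusted p = 0.00206), and −0.59 ± 0.14 without replicate 1 (edgeR adjusted p = 0.00158). The rise to 134 ± 23.7 CPM at day 3 was smaller, at 0.56 ± 0.18 (edgeR adjusted p = 0.0206), and it was not called once day 3 replicate 2, the highest of its group, was left out (0.47, edgeR adjusted p = 0.0661). The day 3 difference from untreated samples was −0.18, with a 95% interval of −0.55 to 0.18 (edgeR adjusted p = 0.528).

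Zbtb16 encodes PLZF, a zinc finger repressor known in lymphoid cells for its part in innate-like T cells and in stromal cells as a strong glucocorticoid target. It was read from few molecules, 13 to 58 UMIs per untreated library, 9 to 23 at day 1 and 30 to 101 at day 3. The levels were 11.1, 17.0, 20.9, 13.1 and 19.6 CPM in untreated libraries, 14.2, 10.03, 8.88, 10.4 and 11.8 CPM at day 1, and 26.7, 27.3, 15.1, 17.5 and 23.0 CPM at day 3. Day 1 overlapped untreated samples, and every day 3 library lay above every day 1 library. The fall at day 1, from 16.3 ± 4.18 to 11.1 ± 2.03 CPM, was −0.65 ± 0.23 on the log2 scale (edgeR adjusted p = 0.0260). It is the least secure of the 8 calls at day 1: leaving out untreated replicate 3 or 5, or day 1 replicate 2 or 3, gave changes of −0.54, −0.58, −0.61 and −0.57 with edgeR adjusted p of 0.0810, 0.0617, 0.0610 and 0.0707. The rise from day 1 to day 3, to 21.9 ± 5.42 CPM, was 1.06 ± 0.22 (edgeR adjusted p = 8.9e-04). At day 3 the difference from untreated samples was 0.41 ± 0.20 and was not called (edgeR adjusted p = 0.162).

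Per1 encodes a repressor of the circadian clock whose gene answers both to the receptor and to cAMP. Its libraries read 109, 47.3, 75.5, 79.3 and 90.2 CPM untreated, 285, 166, 140.1, 228 and 76.1 CPM at day 1, and 66.4, 99.6, 83.7, 77.7 and 85.7 CPM at day 3. Of the day 1 libraries 4 lay above every untreated and every day 3 library, and replicate 5 lay among them. The day 1 libraries also spread most, with a coefficient of variation of 44.9% against 28.1% in untreated and 14.6% in day 3 samples. Per1 rose 2.22-fold at day 1, from 80.2 ± 22.5 to 179 ± 80.5 CPM, a log2 change of 1.15 ± 0.27 (edgeR adjusted p = 0.00173), and it fell by 1.10 ± 0.26 on the log2 scale from day 1 to day 3 (edgeR adjusted p = 0.00354). Without day 1 replicate 1, the highest, the rise was 0.96 ± 0.26 (edgeR adjusted p = 0.00710). The day 3 mean was 82.6 ± 12.1 CPM, a log2 difference of 0.05 from untreated samples with a 95% interval of −0.50 to 0.61 (edgeR adjusted p = 0.923).

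Sgk1 encodes serum- and glucocorticoid-regulated kinase 1, which acts on ion channels, transporters and cell survival, and which growth factors, cell stress and changes in osmolarity also induce. The untreated libraries read 94.4, 87.7, 96.0, 61.1 and 95.8 CPM, the day 1 libraries 75.6, 243, 319, 363 and 235 CPM, and the day 3 libraries 246, 368, 202, 258 and 240.4 CPM. Every day 3 library lay above every untreated one. At day 1 replicate 1 sat among the untreated libraries, from 48 UMIs, and the other 4 lay above all of them. The mean rose from 87.0 ± 14.9 to 247 ± 109.8 CPM at day 1, a log2 change of 1.53 ± 0.28 (edgeR adjusted p = 2.3e-04), and without replicate 1 the change was 1.76 ± 0.18 (edgeR adjusted p = 5.3e-08). At day 3 the mean was 263 ± 62.4 CPM, 3.03-fold above untreated samples with a log2 change of 1.60 ± 0.28 (edgeR adjusted p = 8.2e-04). Day 3 and day 1 samples did not differ beyond their spread, with a log2 difference of 0.07 and a 95% interval of −0.49 to 0.64 (edgeR adjusted p = 0.866). That difference was −0.15 without day 1 replicate 1 (edgeR adjusted p = 0.534).

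Dusp1 encodes a phosphatase that switches off the MAP kinases p38, JNK and ERK, and it is both a receptor target and an immediate-early gene of stress. Its levels were 1206, 546, 598, 497 and 833 CPM in untreated libraries, 1126, 1405, 1948, 1427 and 1337 CPM at day 1, and 899, 1079, 875, 1078 and 1129 CPM at day 3. Untreated replicate 1 lay above the lowest day 1 library and above all day 3 libraries, and the other 4 untreated libraries lay below both irradiated groups. Dusp1 rose 1.97-fold at day 1, from 736 ± 293 to 1449 ± 304 CPM, a log2 change of 0.98 ± 0.21 (edgeR adjusted p = 5.8e-04). At day 3 the mean was 1012 ± 116 CPM and the log2 difference from untreated samples was 0.46 ± 0.21, which was not called (edgeR adjusted p = 0.125) but was called without untreated replicate 1 (0.71, edgeR adjusted p = 0.00852). The difference between day 3 and day 1, −0.52 ± 0.21, lay just outside the threshold (edgeR adjusted p = 0.0571) and inside it under several other settings.

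**Figure D2:**
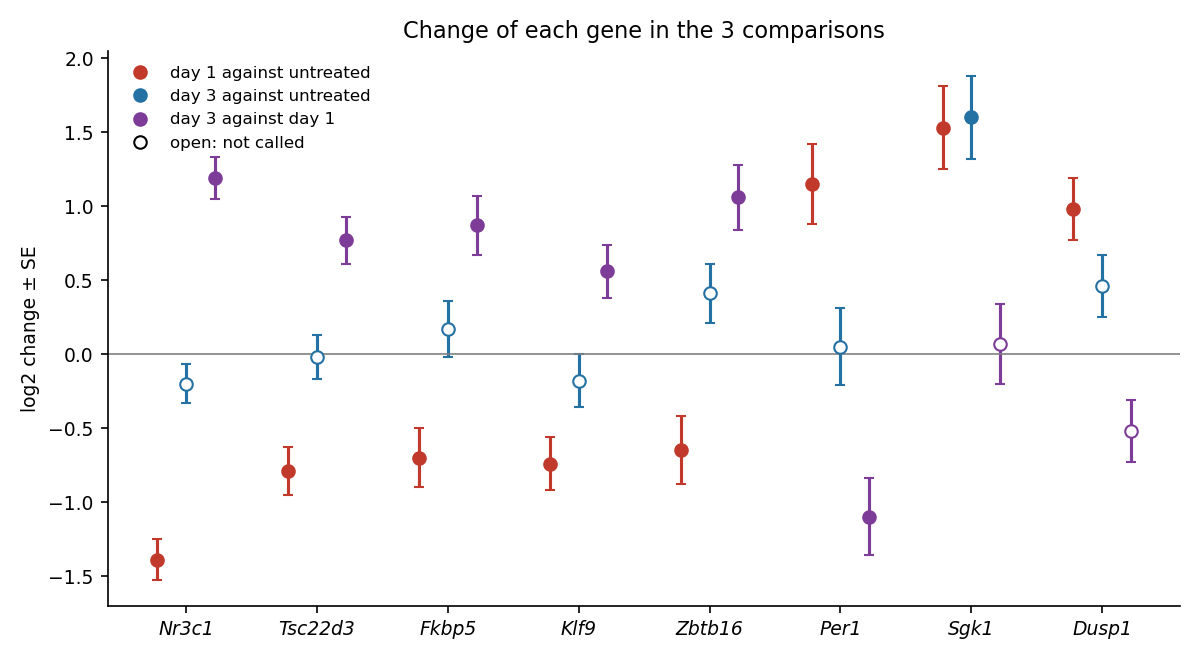
Log2 change ± SE of each gene from the edgeR fit to 15 libraries, in red for day 1 against untreated, in blue for day 3 against untreated and in purple for day 3 against day 1; filled points have an adjusted p under 0.05 and open points do not. All 8 red points are filled, 5 below and 3 above 0, and of the blue points only that of Sgk1 is filled, at 1.60.

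In the authors' deposited table of comparisons, 8 of the 8 genes had an adjusted p under 0.05 at day 1, 1 at day 3 against untreated and 6 for day 3 against day 1. Among the 8 loci, Dusp1 alone was overlapped by another gene with counts, Ergic1, on the opposite strand and away from the 3′ end of Dusp1. Ergic1 had 2462 UMIs over all libraries, and whether counting used the strand is not given in the sources used here. The genes lie, on GRCm38 in the GENCODE vM21 annotation, at chr10:21882184-21999903 (Sgk1), chr17:26505590-26562128 (Dusp1), chr11:69095217-69109960 (Per1), chr17:28399094-28517527 (Fkbp5), chr19:23141226-23168134 (Klf9), chrX:140539528-140600659 (Tsc22d3), chr9:48654297-48836222 (Zbtb16) and chr18:39410545-39519421 (Nr3c1).

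Scaling matters where so much of the transcriptome moved. When libraries were scaled to their total UMIs in place of TMM, the median of all genes shifted to −0.29 at day 1, −0.13 at day 3 and 0.15 for day 3 against day 1. The split of calls moved from 2355 higher and 2362 lower to 1498 higher and 3652 lower at day 1, from 939 and 944 to 660 and 1442 at day 3, and from 1644 and 1691 to 2305 and 1203 for day 3 against day 1. The day 1 calls of all 8 genes kept their direction and stayed under the threshold with that scaling. So did the day 3 call of Sgk1 and the 6 calls of day 3 against day 1.

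Other genes known to be induced by glucocorticoids gave a different mix at day 1. Of 30 such genes, 29 had an entry and 27 were tested. At day 1, 12 rose and 4 fell, beside 23.1% higher and 23.1% lower over all genes tested. At day 3, 8 rose and 3 fell, beside 9.20% and 9.25%. From day 1 to day 3, 3 rose and 9 fell, beside 16.1% and 16.6%. The median change of the 27 genes was 0.57 at day 1 and 0.39 at day 3. Summed over the list, day 1 replicate 1 read 34332 CPM, against 20285 to 23914 CPM in the other day 1 libraries. Without that library, 13 rose and 4 fell at day 1. Cebpb, a transcription factor of the acute-phase response, rose by 2.21 ± 0.24 at day 1 (345 ± 69.8 to 1604 ± 745 CPM, edgeR adjusted p = 2.5e-07), and Irs2, an adaptor of insulin signalling, by 1.32 ± 0.16 (edgeR adjusted p = 1.1e-06). Both were also called higher at day 3, at 1.03 ± 0.23 and 0.86 ± 0.16 (edgeR adjusted p = 0.00400 and 9.7e-04). Cited2, a regulator of CBP and p300, rose by 1.33 ± 0.18 at day 1 and was 0.80 ± 0.17 above untreated samples at day 3 (edgeR adjusted p = 3.2e-06 and 0.00300).

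Genes of that list also fell. Crispld2, a secreted protein that in human airway cells is a known glucocorticoid target, fell by 2.03 ± 0.18 on the log2 scale, from 515 ± 118 to 125 ± 24.3 CPM (edgeR adjusted p = 1.0e-08). At day 3 it was at 416 ± 64.1 CPM and not called against untreated samples (edgeR adjusted p = 0.224). Cdkn1c, an inhibitor of the cell cycle, fell from 271 ± 18.6 to 68.0 ± 22.8 CPM at day 1 (−1.97 ± 0.18, edgeR adjusted p = 1.3e-08) and was still lower at day 3, at 156 ± 16.1 CPM (−0.79 ± 0.17, edgeR adjusted p = 0.00221). Klf15, a metabolic transcription factor and a known receptor target in other tissues, rose at day 3 from 9.05 ± 2.38 to 21.5 ± 4.11 CPM (1.19 ± 0.23, edgeR adjusted p = 0.00119). Its day 1 rise of 0.80 ± 0.25 (edgeR adjusted p = 0.0126) was not called with total-count scaling (0.53, edgeR adjusted p = 0.0799).

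**Figure D3:**
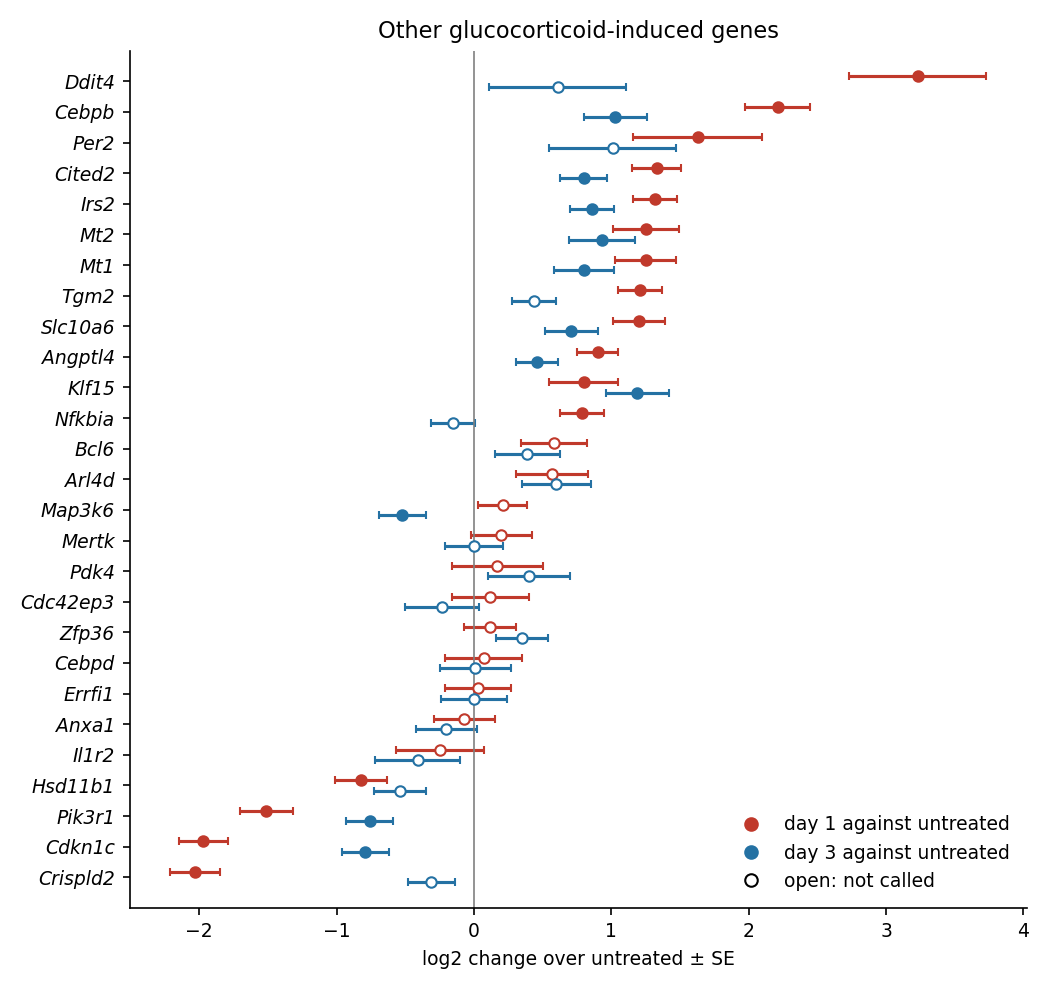
Log2 change over untreated samples ± SE of the 27 other glucocorticoid-induced genes tested, day 1 in red and day 3 in blue, from the edgeR fit to 15 libraries; filled points have an adjusted p under 0.05. At day 1, 12 points are filled above 0, with Ddit4 at 3.23 the highest, and 4 below, with Crispld2 at −2.03 the lowest.

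Calls among the receptor's chaperones and coregulators depended on the scaling. Of 17 tested, 5 rose and 2 fell at day 1, beside 23.1% higher and 23.1% lower over all genes tested. With total-count scaling the day 1 counts were 3 and 7, beside 1498 higher and 3652 lower of all 10207 genes tested. At day 3 edgeR called 0 in either direction, beside 9.20% higher and 9.25% lower over all genes tested. At an unadjusted p under 0.05, 0 of the 17 were higher and 1 lower, while DESeq2 called 0 and limma voom called 3 lower. Stip1, which hands the receptor from Hsp70 to Hsp90, rose by 1.05 ± 0.19 at day 1 (edgeR adjusted p = 1.4e-04). Hsp90ab1 and Hspa8, the Hsp90 and Hsc70 chaperones, rose by 0.84 ± 0.24 and 0.79 ± 0.21 (edgeR adjusted p = 0.00617 and 0.00367). Their day 1 levels spread widely, at 1696 ± 937 and 4258 ± 1793 CPM. Summed over the list, day 1 replicate 1 read 11896 CPM, against 5428 to 6007 CPM in the other day 1 libraries. Without that library the list counts were again 5 and 2, and the changes of these genes without it are not given here. Ncoa3, a coactivator of nuclear receptors, fell by 1.05 ± 0.32 on the log2 scale, from a low 7.87 ± 2.15 to 3.84 ± 1.19 CPM (edgeR adjusted p = 0.00968).

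Among genes that set how much hormone reaches the receptor, 6 were tested. At day 1, 1 rose and 1 fell, beside 23.1% higher and 23.1% lower over all genes tested. Hsd11b1, the enzyme that remakes active glucocorticoid from its inactive form inside the cell, fell from 734 ± 111 to 414 ± 130.1 CPM (−0.82 ± 0.19, edgeR adjusted p = 0.00139). At day 3 it was at 505 ± 97.8 CPM, a difference of −0.54 ± 0.19 from untreated samples that lay just outside the threshold (edgeR adjusted p = 0.0508). Abcb1b, a transporter that pumps steroids and drugs out of cells, rose from 6.08 ± 2.93 to 35.3 ± 17.2 CPM (2.45 ± 0.35, edgeR adjusted p = 1.2e-05), and was also called at day 3 (1.29 ± 0.35, edgeR adjusted p = 0.0157).

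Inflammatory genes that glucocorticoids are known to repress moved one way at day 1. Of 10 tested, 7 rose, with a median change of 1.39, and 0 fell by edgeR, DESeq2, limma voom or an unadjusted p under 0.05. Among all genes tested, 23.1% were called higher and 23.1% lower at day 1. Day 1 replicate 1 read 7824 CPM summed over the list, inside the untreated range of 4337 to 9511 CPM. The other day 1 libraries read 17667 to 22402 CPM. Without day 1 replicate 1, 9 of 11 tested genes of the list rose. From day 1 to day 3, 6 of the 10 fell, beside 16.6% lower over all genes tested. At day 3, edgeR called 0 of them against untreated samples, with 3 higher and 0 lower at an unadjusted p under 0.05, while DESeq2 called 1 and limma voom 2 higher. The chemokine genes Cxcl1 and Cxcl2 rose by 1.29 ± 0.28 and 2.34 ± 0.50 (edgeR adjusted p = 9.6e-04 and 0.00171). The cytokine genes Il1b and Csf2 rose by 3.61 ± 0.65 and 2.83 ± 0.58 (edgeR adjusted p = 4.3e-04 and 7.2e-04) from low levels, 4.54 ± 4.41 and 2.23 ± 2.06 CPM. Il1b is known mainly from macrophages, and of 12 macrophage and dendritic cell markers that passed the filter 9 rose at day 1, and 1 rose and 7 fell at day 3. Summed over all 18 such markers, the level was 189.8 to 755 CPM in untreated libraries, 1029 to 1794 CPM at day 1 and 117 to 219.8 CPM at day 3, when Fcgr1 was at 0. Their part in the change of the inflammatory genes was not tested.

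Calls among the clock genes at day 1 were near the shares over all genes. Of 13 tested besides Per1, 3 rose and 3 fell at day 1, beside 23.1% higher and 23.1% lower over all genes tested. At day 3, 3 fell, beside 9.25% lower over all genes tested. With total-count scaling the day 1 counts were 1 and 5. Per2, the partner of Per1, rose by 1.63 ± 0.47 (4.84 ± 4.04 to 15.1 ± 6.95 CPM, edgeR adjusted p = 0.00832). Nr1d2, a repressor of the clock's activators, fell by 0.78 ± 0.17 at day 1 and by 0.79 ± 0.16 at day 3 on the log2 scale (edgeR adjusted p = 8.0e-04 and 0.00213). Hlf, an output factor of the clock, fell by 1.26 ± 0.31 at day 1, and Npas2, an activator, by 1.30 ± 0.41 (edgeR adjusted p = 0.00206 and 0.0130). At day 3, Rora and Arntl, an activator of Arntl and the core activator itself, fell by 0.96 ± 0.23 and 0.79 ± 0.24 (edgeR adjusted p = 0.00597 and 0.0259). The hour of the day at which tissue was taken is not given in the labels.

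The relatives of Dusp1 rose with it at day 1. Of 9 other MAP kinase phosphatases tested, 7 rose at day 1, beside 23.1% called higher over all genes tested. At day 3, 1 rose and 1 fell, beside 9.20% higher and 9.25% lower over all genes. From day 1 to day 3, 6 of these phosphatases fell, beside 16.6% lower over all genes. At day 1 edgeR and DESeq2 called 0 of them lower, with 0 at an unadjusted p under 0.05, and limma voom called 1; with total-count scaling, 4 rose and 1 fell. Dusp10, which acts on JNK and p38, rose from 11.3 ± 1.84 to 43.4 ± 12.9 CPM (1.89 ± 0.21, edgeR adjusted p = 2.6e-07) and was also called at day 3 (1.18 ± 0.20, edgeR adjusted p = 4.9e-04). Dusp5, Dusp14 and Dusp2 rose by 2.0 ± 0.39, 2.18 ± 0.44 and 1.03 ± 0.29 at day 1 (edgeR adjusted p = 2.9e-04, 8.2e-04 and 0.00606). Dusp8 rose by 0.76 ± 0.22 at day 1 (edgeR adjusted p = 0.00822). At day 3 it was 0.79 ± 0.23 below untreated samples on the log2 scale (edgeR adjusted p = 0.0185). Dusp3, with the highest mean CPM of the family apart from Dusp1, was not called at day 1 (−0.39 ± 0.20, edgeR adjusted p = 0.115).

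Relatives of Klf9, Tsc22d3 and Fkbp5 were called in both directions at day 1, as genes at large were. Of 11 other KLF genes, 1 rose and 2 fell at day 1 and 2 rose at day 3. Over all genes tested the shares were 23.1% higher and 23.1% lower at day 1, and 9.20% higher at day 3. The gene that rose at day 1, Klf15, is also among the other glucocorticoid-induced genes above. Klf13 fell by 0.61 ± 0.17 at day 1 (edgeR adjusted p = 0.00583), and Klf7 by 0.41 ± 0.15 (edgeR adjusted p = 0.0273), a call lost without day 1 replicate 1 (edgeR adjusted p = 0.0507). Klf4 was 0.52 ± 0.17 above untreated samples at day 3 (edgeR adjusted p = 0.0373), a call lost with total-count scaling (edgeR adjusted p = 0.115). Of 7 TSC22 and FKBP genes tested, 3 rose and 1 fell at day 1, and with total-count scaling 0 rose and 2 fell. No relative of Sgk1 on that list had an entry. Fkbp4, the co-chaperone that opposes FKBP51 on the receptor, rose by 0.55 ± 0.17 at day 1 (edgeR adjusted p = 0.0104), while Fkbp5 itself fell; with total-count scaling the change of Fkbp4 was 0.27 and was not called (edgeR adjusted p = 0.163). Fkbp8 and Tsc22d1 rose by 0.54 ± 0.14 and 0.41 ± 0.14 (edgeR adjusted p = 0.00386 and 0.0238), neither of them called with total-count scaling. Fkbp3 fell by 0.57 ± 0.18 on the log2 scale (edgeR adjusted p = 0.0130), and Fkbp1a, with the highest mean CPM of these relatives, was not called (−0.23 ± 0.17, edgeR adjusted p = 0.296).

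**Figure D4:**
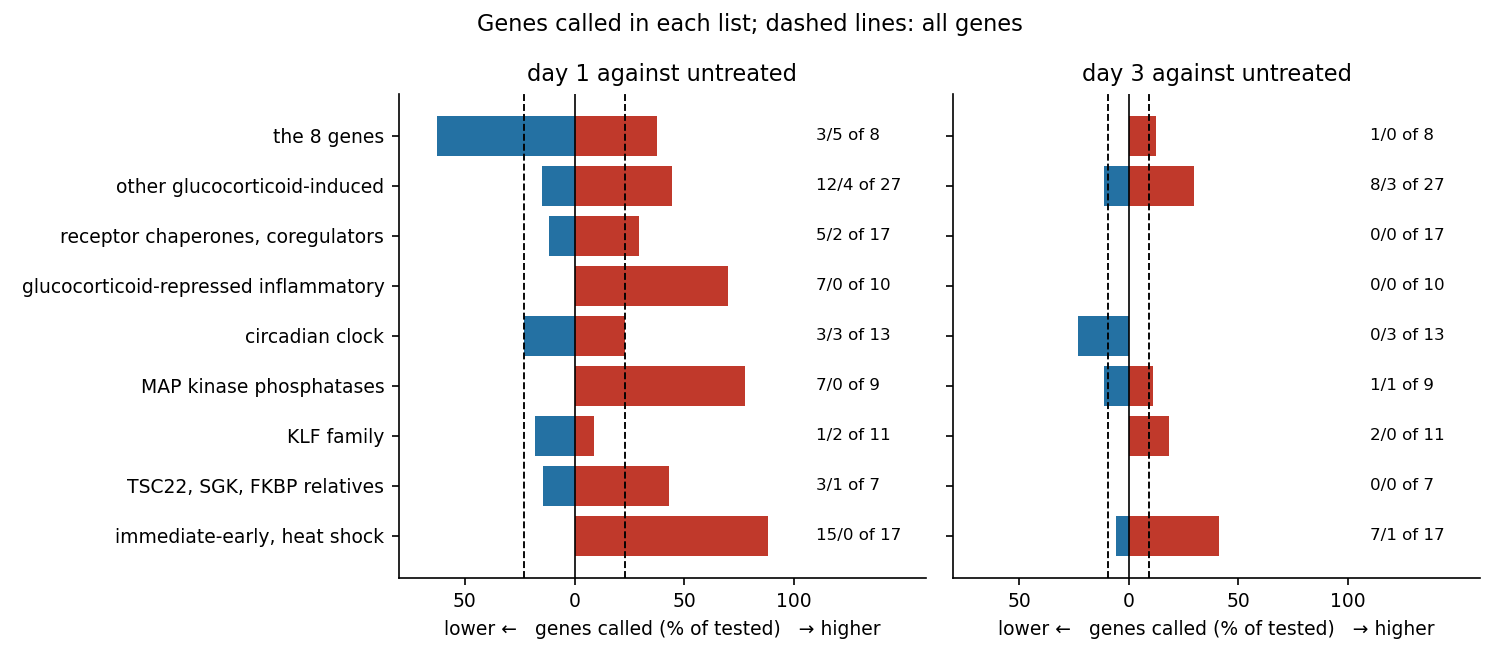
Share of tested genes called higher (red, to the right) and lower (blue, to the left) in each list, in percent, at day 1 (left panel) and day 3 (right panel) against untreated, with the counts as higher/lower of tested at the right; dashed lines mark the shares over all 10207 genes. At day 1 the lists of inflammatory genes, MAP kinase phosphatases and immediate-early genes have red bars and no blue ones, and at day 3 the red bars are shorter in each of these lists.

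Per1, Sgk1 and Dusp1 are also genes that enzymatic digestion and sorting can induce, along with other immediate-early and heat-shock genes. Of 17 such genes, 15 rose at day 1, beside 23.1% called higher over all genes tested. At day 3, 7 rose and 1 fell, beside 9.20% higher and 9.25% lower over all genes. At day 1, 0 of the 17 fell by edgeR, DESeq2, limma voom or an unadjusted p under 0.05. With total-count scaling 9 rose at day 1, and without day 1 replicate 1, 13 did. Ier3, Nr4a1, Btg2 and Junb rose by 1.82 ± 0.21, 1.47 ± 0.19, 1.19 ± 0.17 and 0.90 ± 0.16 at day 1 (edgeR adjusted p = 5.6e-07, 2.7e-06, 1.2e-05 and 7.8e-05), and Jund and Fosb were 0.80 ± 0.17 and 0.85 ± 0.21 above untreated samples at day 3 (edgeR adjusted p = 0.00300 and 0.00777). Summed over the list, untreated replicates 1 and 5 read 30398 and 29103 CPM and the other 3 read 21092 to 21943 CPM, and these same 2 libraries were the highest of their group for Dusp1 and for Per1. Day 1 libraries read 35438 to 60105 CPM, replicate 1 the highest, which was also the highest for Per1, the lowest for Sgk1 and the lowest for Dusp1. Day 3 libraries read 27933 to 33582 CPM. The part of handling in the changes of Per1, Sgk1 and Dusp1 was not tested.

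Markers of other cell types moved with the groups as well. Fibroblast markers fell at day 1, 6 of 8 tested lower and 1 higher, while 9 of 9 mesothelial markers rose. The shares over all genes tested were 23.1% higher and 23.1% lower at day 1. The 4 thymic epithelial markers tested also rose, all of them keratins, and Krt19 among them is in the mesothelial list too. Epcam and Aire of the thymic epithelial list did not pass the filter. Epcam had 11, 10 and 10 UMIs in untreated, day 1 and day 3 libraries, and Aire had 19, 10 and 2. Summed mesothelial markers read 115 to 439 CPM in untreated libraries, 467 to 3029.9 CPM at day 1 and 315 to 1558 CPM at day 3, and thymic epithelial markers 25.2 to 80.8, 126 to 1091 and 86.3 to 433 CPM in the same order. Endothelial markers read 63.1 to 123, 70.9 to 258 and 61.5 to 137 CPM, pericyte markers 299 to 514, 514 to 802 and 257 to 451 CPM, and thymocyte markers 15.3 to 52.5, 9.28 to 13.9 and 7.06 to 14.3 CPM, with Cd8a at 0 at day 1. Of 4 endothelial markers tested, 2 rose and 1 fell at day 1, and of 9 pericyte markers 3 rose and 1 fell. The endothelial and pericyte sums thus mix genes that moved in both directions. In bulk samples, fewer cells of a type and less RNA per cell cannot be told apart, and the part of cell mixture in the falls of Nr3c1, Tsc22d3, Fkbp5, Klf9 and Zbtb16 was not tested.

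The genes whose pattern over the 15 libraries was most like each of the 8 are given as a description, by Pearson correlation of log2 CPM among the 5544 genes whose mean over all libraries reached 20 CPM. The libraries share their depth, their scaling and the group differences, so the group differences are part of these values. Nr3c1 ran closest to Gas1, Tm9sf3 and Col14a1 (r = 0.974, 0.970 and 0.968), which fell at day 1 by 2.05, 1.95 and 1.97 on the log2 scale. Gas1 encodes a surface protein of growth-arrested cells and Col14a1 a collagen of fibroblasts. Klf9 ran closest to Mfsd14b, Rab1a and Map4k5 (r = 0.977, 0.968 and 0.965), Tsc22d3 to Itm2a, Mest and Tcf12 (r = 0.920, 0.918 and 0.910), and Fkbp5 to Ctdsp2, Arl2bp and Arsa (r = 0.908, 0.897 and 0.895). Zbtb16 had the loosest matches, 1810058I24Rik, Adh1 and Scpep1 (r = 0.831, 0.811 and 0.807).

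Among the genes that rose, Sgk1 ran closest to Tmem251, Cxcl5 and Ntpcr (r = 0.965, 0.950 and 0.945). All 3 of these were called higher at both days, as Sgk1 was; Cxcl5, a chemokine that attracts neutrophils, rose by 2.60 at day 1 and was 2.03 above untreated samples at day 3 (edgeR adjusted p = 2.0e-04 and 0.00458). Per1 ran closest to Tjap1, Phc2 and Apba3 (r = 0.927, 0.917 and 0.916), each higher at day 1 and not called at day 3. Dusp1 ran closest to Nudt14, Napa and Fth1 (r = 0.919, 0.905 and 0.903), which rose by 1.51, 0.78 and 0.74 at day 1 (edgeR adjusted p = 5.3e-06, 7.0e-05 and 0.00103). Against untreated samples at day 3, Nudt14 and Napa were called at 0.80 and 0.46 (edgeR adjusted p = 0.0103 and 0.0199), and Fth1, the heavy chain of the iron store ferritin, was not called at 0.41 (edgeR adjusted p = 0.0898).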

How the data were processed

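The authors' raw UMI counts per gene were used, 12763 genes in 15 libraries, deposited unscaled. Per the submitters' processing notes, bcl2fastq, cutadapt, STAR 2.5.2b, HTSeq and DESeq2 were used, with mm10. The authors' deposited log2 fold changes and adjusted p-values, named per the file headers, served for 1 stated comparison, with the sign turned so that the later or irradiated group comes first. Another 30 per-sample columns, normalized or regularized by the authors, were not used.

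Genes were filtered with filterByExpr and scaled by TMM in edgeR 4.0.16 (R 4.3.3). All 15 libraries entered a single quasi-likelihood fit, robust to outlying genes (biological coefficient of variation 0.201), and 95% intervals use its t distribution. On simulated counts the fit called 17.5% of 1.5-fold changes at day 1, 23.3% at day 3 and 14.5% for day 3 against day 1. For 2-fold changes the shares were 74%, 78.7% and 69.6%. At day 1 the simulation changed 57, 73 and 70 genes by 1.5-, 2- and 4-fold, far fewer than the 4717 called in the data. Its adjusted threshold was therefore stricter, and these shares do not give the sensitivity of the tests of the 8 genes. Small changes can still go uncalled. Tables and figures were made in Python 3.11.15. Library totals of 740169 to 3750214 UMIs limit precision for genes with few UMIs. The 8 genes, the lists and the tests were chosen with earlier results of these data known. Genes were named by rule: the 8, up to 4 called genes per list at day 1 and 2 more at day 3 by smallest p, the 3 most alike by correlation, the highest relative per family, and the sort genes; marker genes at 0 and Ddit4 were chosen after their values were seen. Alternatives were 2 other tools (DESeq2 1.42.0 and voom with quality weights from limma 3.58.1), 2 other scalings (RLE and total counts), 2 other filters (none, and 10 counts in 5 libraries), a fit of the compared groups alone, a block for the replicate number, and each library left out in turn. List counts with total-count scaling, and those that leave out replicate 1 of day 1, were chosen after seeing the data.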

Additional observations from a re-analysis of the deposited data

Results flagged for a closer look

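Untreated replicate 4 lay apart from its group for Sgk1, at 61.1 CPM against 87.7 to 96.0 CPM in the other 4 libraries. Its gap to the nearest library was 0.760 of the group's range. It was the 1 library that stood apart among the 24 groups of 5 examined over the 8 genes, and chance puts about 1 in 20 groups past that limit.

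For 6 of the 8 genes the change at day 1 and the change at day 3, both against the same untreated libraries, differed from each other, as tested by day 3 against day 1 in the edgeR fit of 15 libraries. The difference was 1.19 for Nr3c1 (edgeR adjusted p = 9.9e-07), and 0.77 for Tsc22d3 (edgeR adjusted p = 6.9e-04). It was 0.87 for Fkbp5 (edgeR adjusted p = 0.00175), 1.06 for Zbtb16 (edgeR adjusted p = 8.9e-04) and 0.56 for Klf9 (edgeR adjusted p = 0.0206). For Per1 it was −1.10 (edgeR adjusted p = 0.00354).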

How the results depend on the processing

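The 24 changes of the 8 genes were computed under 23 alternatives each, 552 values in all. Direction and side of the threshold held in 527 of them, and throughout for 17 of the 24 changes. Signs turned 11 times, all for differences that were not called: Tsc22d3 at day 3 against untreated with voom (0.01), with only the compared groups (0.00) and without untreated replicate 4 (0.02) or day 3 replicate 3 or 5 (0.04 and 0.03), −0.09 to 0.04 over single libraries left out; Per1 at day 3 against untreated with total-count scaling (−0.06) and without untreated or day 3 replicate 2 (−0.09 and −0.02), −0.09 to 0.18 over single libraries; and Sgk1 at day 3 against day 1 with voom (−0.04) and without day 1 replicate 1 (−0.15) or day 3 replicate 2 (−0.08), −0.15 to 0.25 over single libraries. Dusp1 at day 3 against untreated was also called with voom (0.68, adjusted p = 0.00245), giving 2 of the 8 genes called higher in place of 1; leaving out single libraries gave 1 to 2. Dusp1 at day 3 against day 1 was also called with DESeq2, voom, RLE scaling and only the compared groups (adjusted p = 0.0443, 0.0310, 0.0497 and 0.0292), giving 2 called lower in place of 1, and 1 to 2 with single libraries left out. Of the other glucocorticoid-induced genes, 9 fell from day 1 to day 3, 5 with total-count scaling, and 5 to 9 with single libraries left out. Over all genes at day 3 against untreated, 1883 were called, and 3334 with voom. The causes of these differences were not tested.

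With the replicate number as a block, 2246 genes were called higher and 2265 lower at day 1. At day 3 against untreated it was 798 in each direction, against day 1 it was 1544 higher and 1558 lower, and no call of the 8 genes changed. The numbers gave no sign of pairing libraries: deviations of same-numbered libraries correlated at −0.352 to 0.166. Zbtb16, with 9 UMIs in one day 1 library, is the gene most limited by depth.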

Other observations

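The following glucocorticoid-induced genes outside the 8 were chosen after their values were seen. Ddit4, an inhibitor of the growth kinase mTOR that hypoxia and DNA damage also induce, rose from 18.5 ± 8.27 to 175 ± 125 CPM at day 1 (log2 change 3.23 ± 0.50, edgeR adjusted p = 1.2e-04) and was at 27.8 ± 1.97 CPM at day 3, not called against untreated samples (edgeR adjusted p = 0.452). Mt1 and Mt2, which encode metal-binding proteins, rose by 1.25 ± 0.22 and 1.25 ± 0.24 at day 1 and were 0.80 ± 0.22 and 0.93 ± 0.24 above untreated samples at day 3 (edgeR adjusted p = 1.1e-04, 2.7e-04, 0.0153 and 0.0100). Pik3r1, a regulatory subunit of PI3 kinase, fell from 55.5 ± 6.37 to 20.1 ± 7.05 CPM at day 1 and stood at 32.9 ± 3.05 CPM at day 3 (log2 changes −1.51 ± 0.19 and −0.76 ± 0.17, edgeR adjusted p = 1.4e-06 and 0.00387).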
